A study of Mus musculus with 6 samples.

Results

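The hippocampus of wild-type mice is described here from the 3 libraries labelled WT, out of 6 libraries in the series. They were chosen by their genotype label alone, and the other 3 libraries, labelled APP/PS1, enter no value below. Each WT library is total RNA from hippocampus, labelled wild type and 6 months of age, with a table of gene levels and a table of circular RNA reads. The labels name no treatment, strain, sex or litter for these libraries and do not say that the replicates are separate animals, so an SD here measures the spread between 3 libraries, which may be technical. Values given in a row are those of WT replicates 1, 2 and 3 in that order, and ± marks the SD over n = 3.

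The hippocampus receives cortical input in the dentate gyrus, whose granule neurons project to CA3 pyramidal neurons, which in turn project to CA1. CA2 is a small field between CA3 and CA1, and mossy cells sit in the hilus beneath the granule layer. Most of its neurons release glutamate, a minority are GABA-releasing interneurons, and dissected tissue also carries glia, vessels, blood, meninges and pieces of the choroid plexus that lies beside it in the ventricle.

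The library labelled replicate 3 stood apart at a pair of genes used to check genotype. App, which encodes the amyloid precursor protein, stood at 69.8, 68.5 and 146 FPKM (fragments per kilobase of transcript scaled to the total of fragments, a level corrected for length). Prnp, the prion protein gene, whose promoter drives the transgenes of widely used APP/PS1 lines (the labels name none), stood at 188, 181 and 457 FPKM. Both were raised in replicate 3, 2.11-fold for App and 2.47-fold for Prnp over the mean of the other libraries. The wild-type label of replicate 3 is therefore in doubt, and means and SDs over n = 3 include a library whose genotype could not be settled here. It is named by its label throughout. Most main measures, and the sums of cell type and region lists that rest on it, are also given without it. The 4 Y-linked genes checked were present in every library, with Eif2s3y at 17.6, 16.3 and 17.7 FPKM and Ddx3y at 14.7, 14.8 and 16.5 FPKM. Gene values summed to 183275, 181924 and 183268 FPKM, and the read depth behind them is unknown.

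Gene levels were spread widely, with a similar distribution in each library. Of 15595 distinct genes, 13560 had a mean of at least 1 FPKM, and 13567 did when replicate 3 was left out. The median gene stood at 4.41, 4.43 and 4.50 FPKM, and the middle of the distribution ran from a lower quartile of 1.75 ± 0.0162 FPKM to an upper quartile of 10.5 ± 0.159 FPKM. Genes at 10 FPKM or more numbered 4083, 4065 and 4150 and those at 100 FPKM or more 170, 165 and 159. The 100 highest genes held 22.3% ± 0.288 of all FPKM (22.4% without replicate 3), and it took 1033, 1049 and 1070 genes to reach 50%. In each of these measures the libraries lay within 10% of one another.

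**Figure D1:**
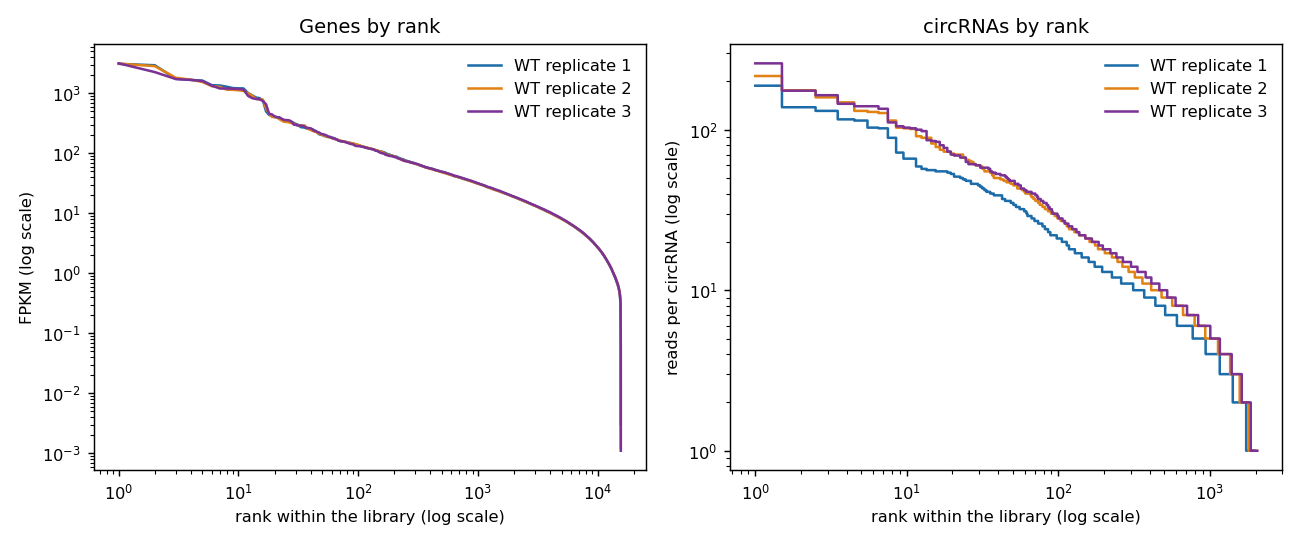
Left, level of each gene in FPKM, and right, reads of each circRNA, against rank from highest to lowest, on log axes, with 1 line per WT library and values of 0 left out. The 3 gene lines run together, with the highest gene between 3099 and 3158 FPKM and the median between 4.41 and 4.50 FPKM, while the circRNA lines start between 188 and 259 reads.

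The top of the ranking belonged to the mitochondrial genome. All 13 of its protein-coding genes stood among the 30 highest genes, and together they made up 9.32%, 8.89% and 9.33% of summed FPKM. mt-Co1, a core subunit of cytochrome oxidase, was first at 3099, 2838 and 3158 FPKM. mt-Nd1 (1746 ± 71.6 FPKM), mt-Cytb (1696 ± 27.5 FPKM) and mt-Atp6 (1592 ± 43.2 FPKM) followed, and they encode parts of complex I, complex III and the ATP synthase. mt-Nd3 was the lowest of the 13 at 371 ± 32.5 FPKM, 8.18-fold below mt-Co1. The 12 genes other than mt-Nd6 varied by CVs of at most 10.6%. mt-Nd6, the single protein gene on the light strand, stood at 498, 562 and 743 FPKM and was highest in replicate 3. The 82 listed nuclear genes of the respiratory chain held a far smaller share, 1.63% ± 0.0100 of summed FPKM, led by Cox8a at 256 ± 8.32 FPKM.

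Long non-coding RNAs and predicted genes were among the highest nuclear transcripts. Gm26917 stood at 2937, 3131 and 2260.0 FPKM and Gm42418 at 760.3, 809.8 and 657 FPKM. Both were lowest in replicate 3. They are predicted genes known to overlap ribosomal RNA sequence, and the share of ribosomal RNA in each library was not measured. Malat1, a nuclear long non-coding RNA, stood at 1362, 1279 and 1201 FPKM.

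Of the protein-coding genes in the nucleus, Ttr and Fth1 were highest. Ttr, the thyroid hormone carrier that choroid plexus secretes, stood at 1014, 1143 and 806 FPKM. Fth1, the ferritin heavy chain that stores iron, stood at 853, 785 and 795 FPKM. Lower in the top 30, Nrgn, a calmodulin-binding protein of dendritic spines, stood at 364, 403 and 401 FPKM, and Ddn, a postsynaptic scaffold protein, at 377 ± 21.9 FPKM. Atp1b1 (343 ± 18.4 FPKM) encodes a subunit of the sodium pump that restores ion gradients after firing. Cpe, which trims neuropeptide precursors, stood at 447 ± 9.36 FPKM, and Ncdn at 353 ± 6.02 FPKM. Sparcl1, an astrocyte-rich secreted protein, was the steadiest of the 30 at 332, 329.9 and 332 FPKM.

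Calmodulin, the calcium sensor of every cell, is encoded by several genes with the same protein. Calm3 stood at 405 ± 11.96 FPKM and Calm2 at 402 ± 9.97 FPKM. Calm3 over Calm2 was 1.05, 1.02 and 0.951, so the order of Calm3 and Calm2 was not the same in each.

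**Figure D2:**
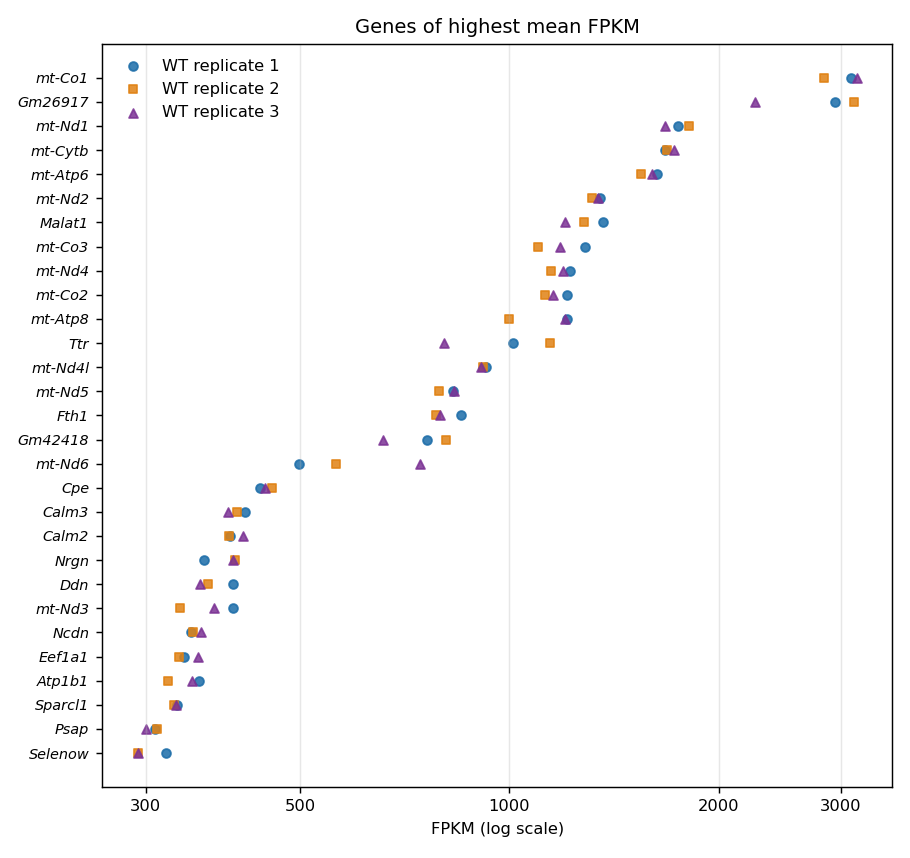
The 29 genes drawn out of the 30 of highest mean level, with FPKM on a log axis and 1 symbol per WT library. Mitochondrial genes (names starting with mt-) fill 13 of these places, and 24 have a CV under 10%; Gm26917, Ttr and mt-Nd6 show the widest gaps between symbols.

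Markers of neurons were high and steady. Snap25, part of the complex that fuses vesicles with the membrane, stood at 161, 162 and 162 FPKM, and Syp, a vesicle membrane protein, at 140, 141 and 135 FPKM. All 13 pan-neuronal markers were above 22 FPKM, and their sum was 1146, 1088 and 1089 FPKM. Nefl, a neurofilament subunit, stood at 122 ± 5.51 FPKM and Thy1 at 108 ± 2.96 FPKM. Syt1, the calcium sensor of release, was the exception at 115, 73.9 and 76.0 FPKM, 1.53-fold higher in replicate 1 than the mean of the others, while the other 12 markers had a median ratio of 1.01. In tissue RNA, fewer cells of a type and less RNA per cell cannot be told apart, here and for each list below.

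Glutamatergic genes exceeded GABAergic ones. Slc17a7, the vesicular glutamate transporter of forebrain, stood at 105, 92.5 and 89.5 FPKM, and Slc17a6, the transporter that prevails in thalamus, at 5.50, 5.34 and 4.49 FPKM, a ratio of 19.1, 17.3 and 19.9. Camk2a, the kinase of the postsynaptic density, stood at 259.81, 263 and 261 FPKM. Gria1, an AMPA receptor subunit, stood at 159 ± 11.2 FPKM and Dlg4, the scaffold PSD-95, at 110.1 ± 1.24 FPKM. Gad1, which makes GABA, stood at 30.5, 27.5 and 31.8 FPKM. The 9 listed GABAergic genes summed to 120, 123 and 146 FPKM. Gad2 at 22.3, 24.4 and 33.99 FPKM and Slc32a1 at 19.4, 20.4 and 26.0 FPKM were higher in replicate 3. Replicate 3 held the highest value for 7 of the 9, where it held it for 40.4% of all 13560 genes. Without replicate 3 the highest over the lowest GABAergic sum was 1.02 in place of 1.22, and without replicate 1 it was 1.19. Leaving out a library can only lower such a ratio or leave it unchanged, here and for each list below.

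Interneuron class genes were uneven among themselves. Sst, the peptide somatostatin, led at 120.2, 138 and 129 FPKM, followed by Cck at 71.9 ± 9.82 FPKM, Cnr1 at 37.3 ± 3.27 FPKM and Npy at 24.6 ± 3.29 FPKM. Pvalb, the calcium buffer of fast-spiking cells, stood at 20.3, 14.97 and 10.9 FPKM. Sst over Pvalb was therefore 5.91, 9.19 and 11.8, a ratio of messages and not of cells. Vip stood at 2.46 ± 0.346 FPKM and Crh, the lowest, at 0.751 ± 0.305 FPKM. Cck, Npy, Pvalb and Crh are also made by some other neurons.

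Astrocyte genes were the most abundant of the glial lists, and their sum was steady at 1448, 1484 and 1443 FPKM over 18 markers. Glul, which turns glutamate into glutamine, stood at 304, 289 and 291 FPKM. Slc1a2, the main glutamate uptake carrier, stood at 270.49, 295 and 289.86 FPKM, Apoe at 248 ± 20.1 FPKM and Clu at 124 ± 3.26 FPKM. Gja1, the gap junction protein connexin 43, departed from the others at 6.18, 20.4 and 5.52 FPKM. It was 3.49-fold higher in replicate 2 than the mean of the other libraries, while the other 17 astrocyte markers had a median ratio of 1.00 and none exceeded 1.18.

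Most oligodendrocyte genes were lowest in replicate 2. Mobp, a myelin protein, stood at 73.7, 68.8 and 82.9 FPKM and Mbp, which compacts the myelin sheath, at 47.9, 42.0 and 72.1 FPKM. The sum of 16 markers was 518, 459 and 572 FPKM. Replicate 2 was lowest for 15 of the 16, where it was lowest for 33.4% of all genes, and replicate 3 was highest for 9 (40.4% of all genes). Markers of one list come from the same cells and are not replicates, so these counts are a description. Without replicate 3 the highest over the lowest sum was 1.13 in place of 1.24, and without replicate 2 it was 1.10. Precursor genes were lower and steadier at 79.5, 82.7 and 82.9 FPKM for 10 markers, with Olig1 at 30.2 ± 2.15 FPKM and Pdgfra, the receptor that defines these cells, at 5.99 ± 0.297 FPKM.

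Microglial genes summed to 146, 149.6 and 155 FPKM over 18 markers. Among complement genes, C1qa stood at 21.8 ± 1.12 FPKM, C1qb at 16.7 ± 1.996 FPKM and C1qc at 10.2 ± 0.754 FPKM. Trem2, a lipid receptor, was the lowest at 1.10 ± 0.179 FPKM. Cx3cr1, the fractalkine receptor by which microglia are often identified, stood at 5.51, 7.34 and 0.442 FPKM. It was lower in replicate 3 by a ratio of 0.0687, while the other 17 microglial markers had a median ratio of 1.13 and ranged from 0.742 for Trem2 to 1.32 for P2ry12. The low value of Cx3cr1 was thus not shared by its list.

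Vessel and meningeal genes were lower. Endothelial markers summed to 81.6, 78.2 and 85.5 FPKM, with Cldn5, a tight junction protein, at 10.8 ± 0.495 FPKM. Mural markers summed to 70.4, 66.8 and 72.9 FPKM, led by Vtn at 22.4 ± 1.07 FPKM. Leptomeningeal markers summed to 47.7, 50.6 and 53.2 FPKM, with Igf2 at 10.3, 12.96 and 7.29 FPKM and Dcn at 7.54, 6.99 and 9.08 FPKM.

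Choroid plexus genes differed between libraries more than most lists. Their sum was 1222, 1400.3 and 999 FPKM, of which Ttr held most. Replicate 2 was highest for 13 of the 14 markers (27.7% of all genes) and replicate 3 lowest for 11 (32.8% of all genes). Enpp2 stood at 121, 158 and 111 FPKM, Kl at 13.2, 16.6 and 12.2 FPKM, and Otx2, the transcription factor of this epithelium, at 2.21, 2.51 and 1.59 FPKM. Without replicate 3 the ratio of the choroid plexus sums was 1.15 in place of 1.402, and without replicate 2 it was 1.22. Ependymal genes, which mark the ciliated cells of the ventricle wall, had another order. They summed to 15.1 ± 4.97 FPKM (12.4 FPKM as the mean without replicate 3), and replicate 3 was highest for 5 of 6 (40.4% of all genes). Without it the ratio of the sums was 1.29 in place of 1.90. Foxj1, the regulator of motile cilia, stood at 4.53, 6.54 and 7.36 FPKM. How much of each structure entered each dissection was not measured.

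Red cell genes were highest in replicate 1 for 5 of 5 members, where replicate 1 was highest for 31.9% of all genes. Hbb-bs stood at 171, 115 and 113 FPKM, Hba-a1 at 158, 92.6 and 93.9 FPKM, Hba-a2 at 109, 88.2 and 88.2 FPKM and Hbb-bt at 41.1, 37.6 and 36.8 FPKM. The near-identical globin copies share reads, so the split between them is uncertain. Without replicate 1 the highest over the lowest sum was 1.01 in place of 1.44. Of 10 peripheral immune markers 3 had a row. Mrc1, of perivascular macrophages, stood at 1.18 ± 0.200 FPKM, S100a9 at 0.4998 ± 0.0685 FPKM, and S100a8, another neutrophil gene, at 0.451 and 0.290 FPKM in replicates 1 and 3 and was listed at 0 in replicate 2.

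**Figure D3:**
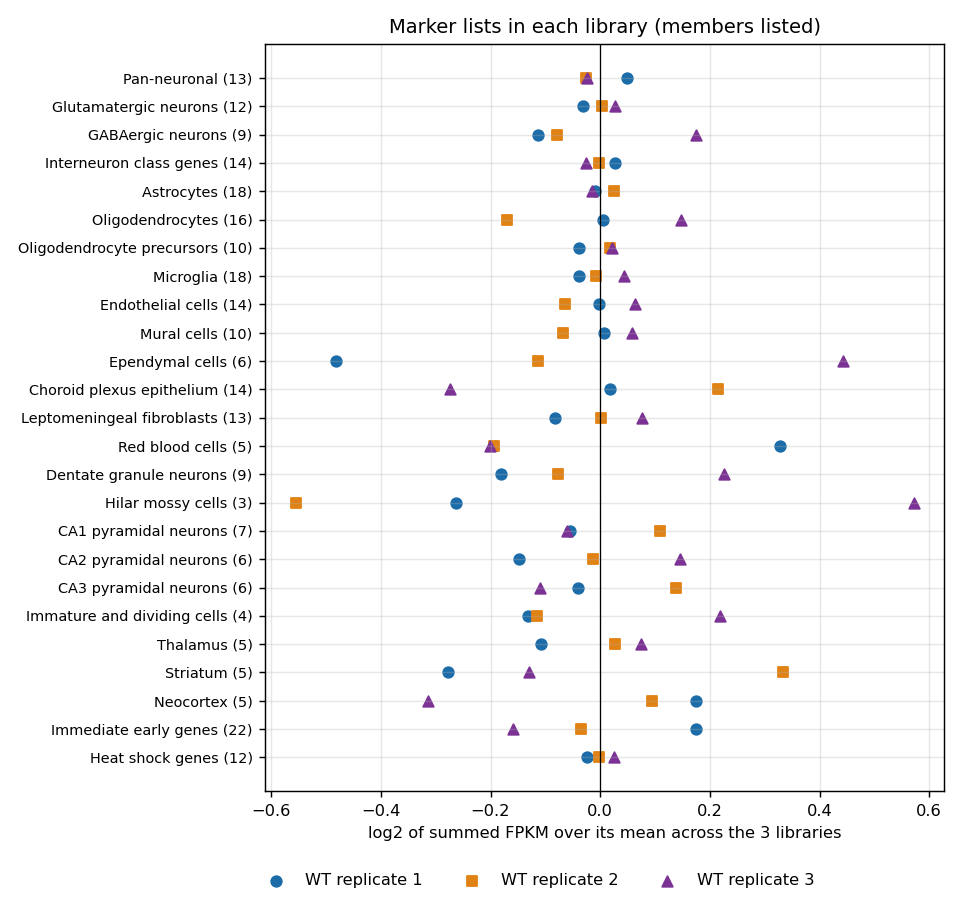
For each list, the log2 of its summed FPKM in 1 WT library over the mean of its sums in the 3 libraries, with the number of listed members in brackets and 1 symbol per library. Pan-neuronal, glutamatergic and astrocyte sums lie close to 0, while mossy cell, ependymal, choroid plexus, red cell and striatal sums are spread more widely; replicate 3 is lowest for choroid plexus and neocortex and highest for ependymal and dentate genes.

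Markers of all 4 hippocampal fields were present. Prox1, the transcription factor of dentate granule neurons, stood at 15.5, 14.4 and 19.98 FPKM, and C1ql2, secreted by their mossy fibres, at 17.8, 23.0 and 20.8 FPKM. The 9 dentate genes summed to 72.7, 78.1 and 96.3 FPKM, with replicate 3 highest for 6 of the 8 at 1 FPKM or more (40.4% of all genes), and Tdo2 the lowest at 0.786 ± 0.0964 FPKM. Calb2, which in the mouse marks mossy cells and some interneurons, stood at 13.1, 9.86 and 23.8 FPKM and was highest in replicate 3. Calcrl at 1.57, 1.42 and 2.41 FPKM and Drd2 at 0.957, 1.47 and 1.62 FPKM were also highest there. Without replicate 3 the highest over the lowest sum was 1.08 in place of 1.33 for dentate genes and 1.22 in place of 2.18 for mossy cell genes. Calb2 held most of the mossy cell sum, which has 3 listed genes. With the median of the members in place of their sum, the mossy cell ratio over all 3 libraries was 1.64.

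CA1 genes summed to 126, 142 and 126 FPKM over 7 markers, but single genes moved far more than the sum. Wfs1, the most used CA1 marker, stood at 43.7, 41.0 and 21.7 FPKM, a ratio of 0.513 for replicate 3, while the other 6 had a median ratio of 1.15. Mpped1 stood at 15.5, 34.9 and 31.9 FPKM, lower in replicate 1 by a ratio of 0.465, while the other 6 had a median ratio of 1.05. Fibcd1 at 21.5, 22.1 and 25.5 FPKM and Gpr161 at 13.6 ± 0.263 FPKM varied less. CA2 genes summed to 95.1, 104 and 117 FPKM, led by Pcp4 at 49.2, 58.8 and 61.0 FPKM, with Rgs14 at 12.8 ± 1.56 FPKM and Amigo2 at 5.61, 6.17 and 10.1 FPKM. The ratio of CA2 sums was 1.23, and it was 1.10 without replicate 3 and 1.12 without replicate 1. CA3 genes summed to 26.2, 29.6 and 24.9 FPKM, with Grik4, a kainate receptor subunit, at 8.73 ± 0.233 FPKM and Bok at 7.67, 10.8 and 5.81 FPKM. Since these sums depend on which genes were listed, they do not rank the fields by size.

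Genes listed for immature cells, neocortex, striatum and thalamus also had signal. Of 8 genes of immature or dividing cells 4 had a row. Neurod1 stood at 8.67 ± 1.06 FPKM, Sox11 at 5.40 ± 0.820 FPKM and Dcx, the migration protein of new neurons, at 2.23, 2.26 and 1.94 FPKM. Igfbpl1 stood at 0.124, 0.690 and 1.65 FPKM. The ratio of the sums of these 4 genes was 1.27, and 1.01 without replicate 3. Neocortical markers summed to 48.0, 45.4 and 34.2 FPKM, with Tbr1 at 13.3, 12.6 and 8.13 FPKM and Cux2 at 7.66, 6.52 and 3.27 FPKM, both lowest in replicate 3, and the ratio of the sums was 1.403, and 1.06 without replicate 3. Striatal markers summed to 22.9, 35.0 and 25.4 FPKM, with Ppp1r1b at 11.4, 18.4 and 11.03 FPKM. Thalamic markers summed to 18.9, 20.8 and 21.5 FPKM, with Prkcd at 3.03, 5.06 and 7.33 FPKM. Of these 5 markers, 3 were lowest in replicate 3 (32.8% of all genes), namely Slc17a6, Rora at 7.31, 7.50 and 6.22 FPKM and Lef1 at 1.68, 1.57 and 1.39 FPKM. Several of these genes are also used inside the hippocampus, and whether tissue from outside it entered a dissection was not tested. In all, 12 of 24 cell type and region lists had a highest sum at least 1.2-fold over the lowest. With replicate 1, 2 or 3 left out, 9, 9 and 5 did, a count that could only fall or stay the same.

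Genes of synaptic release and of neuronal activity were among the higher groups. Cplx2 (216 ± 13.9 FPKM) and Cplx1 (144 ± 15.3 FPKM) encode complexins, Vamp2 (180 ± 7.51 FPKM) the vesicle partner of Snap25, and Syn1 (149.8, 148 and 132 FPKM) a phosphoprotein that tethers vesicles. Of 16 release genes, 10 were highest in replicate 1 (31.9% of all genes) and 11 lowest in replicate 3 (32.8%). The lowest, Stx1a, stood at 18.014 ± 2.63 FPKM.

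Immediate early genes, which neurons switch on within minutes of firing, summed to 690, 596 and 547 FPKM over 22 members. Arc, which acts at the synapse, stood at 149.7, 126 and 91.9 FPKM, Egr1 at 87.9, 74.6 and 62.2 FPKM and Nr4a1 at 66.5, 55.4 and 46.2 FPKM, each in the same order of libraries. Replicate 1 was highest for 14 of the 22 and replicate 3 lowest for 12, against 31.9% and 32.8% of all genes. Other members did not follow, with Jun at 38.9, 36.4 and 44.2 FPKM and Fos at 30.9, 25.7 and 32.3 FPKM highest in replicate 3. Egr3 stood at 26.2, 22.9 and 8.28 FPKM, lower in replicate 3 by a ratio of 0.338, while the other 21 had a median ratio of 0.941. The behaviour of the animals before death and the time to freezing are not in the labels.

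The promoters of several immediate early and abundant neuronal genes are known to carry the cyclic AMP response element, the site bound by the activity-dependent factor CREB. Promoter windows from RefSeq (GRCm38.p6, 250 bases before to 50 after each start) matched 10665 listed genes, with the first window taken where a gene has several. TGACGT, in either orientation (ACGTCA on the other strand), occurred in 7.64% of all 27025 windows and in 11.8% of those of listed genes. By mean level the share was 8.28% under 1 FPKM, 14.3% from 10 to 50 FPKM, 11.4% from 50 to 100 FPKM and 24.7% (24 of 97) at 100 FPKM or more. The palindrome TGACGTCA, which holds both orientations at once, occurred in 1.88% of all windows, in 3.31% of those of listed genes and in 8.25% of those at 100 FPKM or more. TGACGT was present in 7 of the 17 immediate early genes with a window, namely Fos, Egr4, Nr4a3, Npas4, Btg2, Dusp1 and Homer1. That list has 22 members, and Arc, Egr1 and Egr3 are among those without a window. Genes without a window enter none of the shares here. It was present in 3 of 11 release genes and 2 of 10 interneuron class genes, and in 0 of 7 pan-neuronal, 0 of 7 glutamatergic and 0 of 6 GABAergic genes. A match is a description of letters and not of a bound site, and no binding was measured here.

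The stretches below are the last 200 bases before the start of 5 of these genes, printed to show where the element lies, with each match in capitals. Sst and Syn1 are abundant neuronal genes, and Fos, Npas4 and Dusp1 are immediate early genes chosen after their values and sequences were seen. Sst lies at chr16:23890845-23891044 on the minus strand, Syn1 at chrX:20920919-20921118 on the minus strand, Fos at chr12:85473690-85473889 on the plus strand, Npas4 at chr19:4989972-4990171 on the minus strand and Dusp1 at chr17:26508473-26508672 on the minus strand.
Sst: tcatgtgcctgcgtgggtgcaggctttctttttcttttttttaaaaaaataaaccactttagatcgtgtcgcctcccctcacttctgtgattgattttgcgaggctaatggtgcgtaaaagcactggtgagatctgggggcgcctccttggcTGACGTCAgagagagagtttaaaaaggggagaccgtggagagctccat
Syn1: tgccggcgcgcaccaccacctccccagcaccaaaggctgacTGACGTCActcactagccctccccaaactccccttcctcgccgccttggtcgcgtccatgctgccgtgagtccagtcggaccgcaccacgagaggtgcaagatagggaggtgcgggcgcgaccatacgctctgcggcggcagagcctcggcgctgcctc
Fos: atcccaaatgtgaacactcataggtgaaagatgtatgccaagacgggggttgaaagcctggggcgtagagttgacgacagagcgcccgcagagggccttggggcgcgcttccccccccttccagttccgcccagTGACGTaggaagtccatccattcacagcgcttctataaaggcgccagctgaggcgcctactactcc
Npas4: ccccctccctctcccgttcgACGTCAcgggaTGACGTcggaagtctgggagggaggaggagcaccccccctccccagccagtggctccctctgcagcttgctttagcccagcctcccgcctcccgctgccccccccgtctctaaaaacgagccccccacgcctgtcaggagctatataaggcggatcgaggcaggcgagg
Dusp1: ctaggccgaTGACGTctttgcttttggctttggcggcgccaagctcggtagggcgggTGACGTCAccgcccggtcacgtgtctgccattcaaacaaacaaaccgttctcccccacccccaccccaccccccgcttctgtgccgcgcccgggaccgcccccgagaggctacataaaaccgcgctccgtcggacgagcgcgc
Counted back from the base before the start (-1), the first letter of the palindrome lies at -48 in Sst, at -159 in Syn1 and at -143 in Dusp1. Fos holds 1 TGACGT at -66. Npas4 holds ACGTCA at -180 and TGACGT at -169, and Dusp1 holds a further TGACGT at -191.

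CpG content of the promoter windows differed with level. The median observed over expected CpG ratio was 0.538 for genes under 1 FPKM, 0.750 from 2 to 5 FPKM, 0.818 from 10 to 50 FPKM and 0.767 at 100 FPKM or more. Among lists with at least 5 windows it was 0.188 for 5 red cell genes, 0.277 for 12 microglial genes, 0.294 for 14 astrocyte genes and 0.334 for 12 oligodendrocyte genes, against 0.827 for 17 immediate early genes, 0.890 for 60 ribosomal protein genes and 0.966 for 5 CA1 genes. The ratio over all listed genes with a window was 0.759. These are descriptions across genes, which are not independent replicates.

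Housekeeping and stress groups were steady as sums. The 80 ribosomal protein genes held 2.10%, 2.07% and 2.10% of summed FPKM, with Rplp1 at 258 ± 14.4 FPKM and Rpl17 at 166 ± 0.726 FPKM, and Rps18 lowest at 9.07, 4.40 and 3.13 FPKM. Many of these genes have processed copies elsewhere in the genome that can take their reads. The 12 heat shock genes summed to 810, 822 and 838 FPKM, led by Hsp90ab1 at 274, 293 and 288 FPKM and Hspa8 at 147 ± 6.40 FPKM. Hspa1a at 25.7, 11.7 and 19.5 FPKM and Hspa1b at 28.5, 13.3 and 21.2 FPKM, inducible genes of nearly the same sequence that share reads, were highest in replicate 1. They were chosen after their values were seen.

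Replication-dependent histone messages, which normally lack a poly(A) tail, were present. All 63 histone genes on the list had a row, 59 at 1 FPKM or more, and they summed to 650, 573 and 663 FPKM. Hist1h4h stood at 49.6, 46.3 and 61.3 FPKM and Hist1h4d at 44.4 ± 1.32 FPKM. Hist2h2aa1 stood at 37.9, 0.0581 and 41.9 FPKM, while its near-identical neighbour Hist2h2aa2 stood at 36.1, 27.1 and 29.8 FPKM, so the split between copies is uncertain. The 9 long non-coding RNAs with a row were lowest in replicate 3 for 8 (32.8% of all genes). Meg3, a maternally expressed imprinted RNA, stood at 97.1, 108 and 82.0 FPKM and Snhg11 at 96.1, 94.6 and 77.8 FPKM.

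The spread of a gene between libraries depended on its level. The coefficient of variation (CV, the SD over the mean) had a median of 8.33% over the 13560 genes at 1 FPKM or more. It was 20.6% under 1 FPKM, 14.2% between 1 and 2 FPKM, 7.404% between 5 and 10 FPKM and 4.42% over the 165 genes at 100 FPKM or more. A CV under 5% was found for 25.8% of genes, and a CV of 50% or more for 180 genes (1.33%). Across genes, log2 levels of the library pairs had a Pearson r of 0.984 (replicates 1 and 2), 0.980 (1 and 3) and 0.982 (2 and 3), and genes are not independent replicates. Within 1.2-fold lay 86.3% of genes for replicates 1 and 2, 80.5% for 1 and 3 and 83.3% for 2 and 3. A 2-fold difference was found for 113, 139 and 98 genes in these pairs, so by that count replicates 2 and 3 were closest. With replicate 1, 2 or 3 left out the median CV was 7.07%, 7.46% and 5.70%, where fewer libraries enter each CV.

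The 10 steadiest genes of at least 5 FPKM included Ndufa9 and Ndufb9 of the respiratory chain. As a list, the 81 nuclear respiratory chain genes at 1 FPKM or more had a median CV of 5.30%. That was near the 6.10% of all genes from 10 to 50 FPKM. Ndufa9, a subunit of complex I, stood at 24.53, 24.52 and 24.51 FPKM, a CV of 0.0279%, and Ndufb9 of the same complex at 68.7, 68.5 and 68.5 FPKM. Mrs2, the magnesium channel of mitochondria, stood at 13.4 ± 0.0133 FPKM, Timm17a, a subunit of the mitochondrial import channel, at 9.004 ± 0.0206 FPKM and Cbr1, a carbonyl reductase, at 27.1 ± 0.0470 FPKM. The other members of the 10 steadiest were Mpped2, Tanc1, Clptm1l, Kbtbd2 and Snap25. Since these 10 are the extreme of 7244 genes, their order is a description.

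At the other end were the most variable genes of at least 5 FPKM. H1fx, a linker histone, was listed at 0 in replicates 1 and 2 and stood at 16.9 FPKM in replicate 3. Gm28967 stood at 17.2, 237 and 12.02 FPKM. Gm20431 stood at 26.7 FPKM, was listed at 0 in replicate 2 and stood at 24.7 FPKM in replicate 3. Zfp281, a zinc finger regulator, stood at 13.3, 0.0102 and 14.3 FPKM. Ackr1, a chemokine-binding protein of venules and red cells, stood at 1.23, 13.2 and 2.85 FPKM. In each of these genes 1 library lay far from the other two.

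Clustered protocadherins, cell surface proteins that neurons use to tell themselves apart, were among the most variable genes. Of the 15 with the largest CV 4 were members of the gamma cluster, whose transcripts share their last exons. Pcdhgc3 stood at 1.81, 16.7 and 1.72 FPKM, Pcdhgb7 at 3.72, 19.4 and 5.004 FPKM, Pcdhga9 at 33.1, 10.8 and 4.89 FPKM and Pcdhgb2 at 3.17, 4.80 and 16.2 FPKM. Each of the 3 libraries held the highest value of at least 1 of them. Over 21 gamma genes the median CV was 43.5%, and over all 51 clustered protocadherins it was 15.4%. Pcdhgc5 at 11.1 ± 0.628 FPKM was steady. Because the gamma transcripts share exons, reads cannot be assigned to a member with certainty.

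A single library stood apart from the others for 122 genes (0.900% of 13560), counted where it was at least 2-fold from the mean of the others on FPKM + 1 and those lay within 1.2-fold of each other. Replicate 1 was higher for 15 (0.111%) and lower for 34 (0.251%), replicate 2 higher for 11 (0.0811%) and lower for 19 (0.14%), and replicate 3 higher for 14 (0.103%) and lower for 29 (0.214%). Every library had such genes. Lower calls outnumbered higher ones in each, but in replicate 3 they were 9 and 9 among genes at 5 FPKM or more. In replicate 3, App and Prnp were joined by Fkbp1a, the protein that binds the drugs FK506 and rapamycin, at 29.5, 29.4 and 75.7 FPKM and by Cds2, a phospholipid enzyme, at 13.05, 14.1 and 69.5 FPKM. Lower in replicate 3 was Atp6v1g2, a neuronal proton pump subunit, at 89.3, 77.9 and 26.4 FPKM.

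In replicate 2, Rac1, a GTPase of the actin skeleton, stood lower at 45.5, 16.3 and 54.7 FPKM. Ftl1, the ferritin light chain, stood at 68.7, 31.1 and 69.9 FPKM, while Ube2v1 stood higher at 4.70, 23.9 and 4.72 FPKM. In replicate 1, Bcl2l2, a survival protein, stood higher at 24.3, 6.37 and 6.74 FPKM, and Tmem170b lower at 1.74, 20.7 and 22.3 FPKM. Overlap with a neighbouring gene was as common among these 122 genes as among all, 48.1% (50 of the 104 matched) against 48.2%. Of names that stood on more than 1 row, Map2k7 read 3.32, 8.62 and 8.50 FPKM on one row and 5.50, 0.0627 and 0.142 FPKM on the other, so the library that was low on the first row was high on the second. Map2k7 was chosen after its values were seen.

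**Figure D4:**
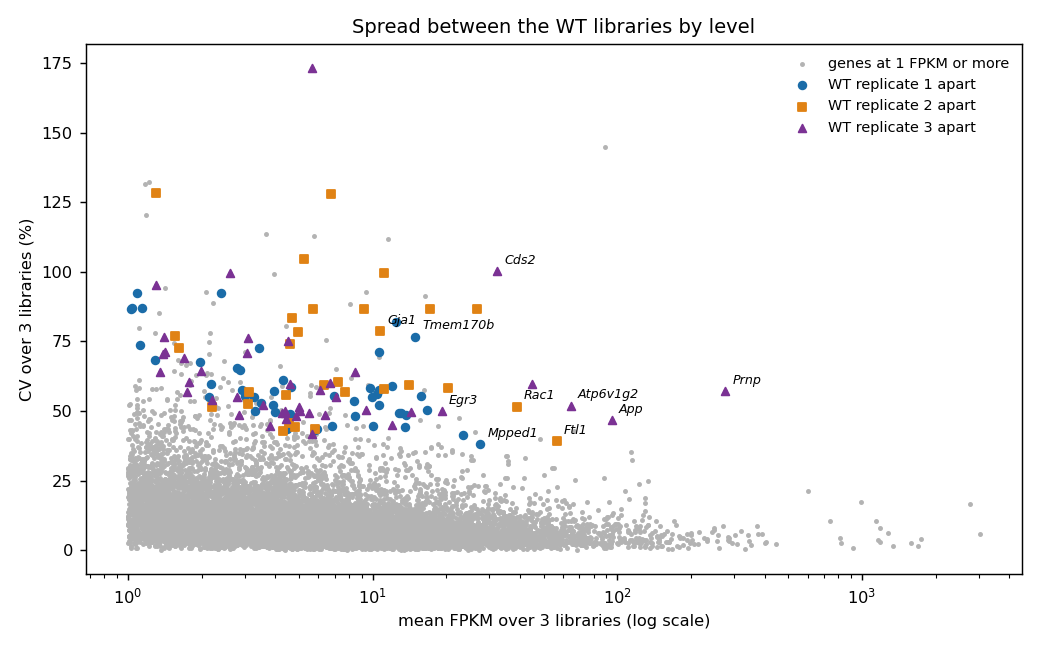
CV over the 3 WT libraries in percent against mean FPKM (log scale) for the 13560 genes at 1 FPKM or more, with the 122 genes where 1 library stood apart marked by library. The grey cloud narrows with level, and App, Prnp, Cds2, Rac1 and Atp6v1g2 lie far above it at their level.

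Circular RNAs are loops made when a downstream splice donor joins an upstream acceptor, and brain is known for holding many of them. The tables listed 2246, of which 257 had coordinates and 1989 only a database number. Reads summed to 13998, 17843 and 18866, so most circles rested on few reads. Reads were found in all 3 libraries for 1696 circles (75.5%), in 2 libraries for 430, in 1 for 97 and in none for 23. The mean count was under 2 reads for 268 circles, from 2 to 5 for 1035, from 5 to 10 for 549, from 10 to 50 for 359 and at least 50 for 35. The limit set by a count of 0, taken as 3 reads, was 214, 168 and 159 CPM (reads scaled to a circRNA total of 1000000), and limits and intervals here cover counting error only.

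Reads were spread over many circles. The highest circle, mmu_circ_0001311, had 188, 216 and 259 reads, which was 1.34%, 1.21% and 1.37% of reads (exact 95% intervals from 1.16% to 1.55%, 1.06% to 1.38% and 1.21% to 1.55%). The next was mmu_circ_0000684 with 138, 176 and 175 reads, and then came mmu_circ_0000057 with 131, 159 and 140 reads, mmu_circ_0000489 with 114, 127 and 164 reads and mmu_circ_0001797 with 89, 148 and 135 reads. The database numbers are not paired with genes here. The 100 highest circles held 29.5% (28.7% to 30.3%), 31.2% (30.5% to 31.9%) and 30.2% (29.5% to 30.8%) of reads, and 293, 268 and 280 circles made up 50%. The 35 circles with a mean of at least 50 reads held 17.1% of reads, and the 359 from 10 to 50 reads held 38.9%.

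The 257 circles with coordinates held 8.72%, 8.28% and 8.06% of circRNA reads, and 254 of them lay inside a gene. They came from 201 host genes, of which 171 gave a single circle. Genomic spans from end to end ran from 101 to 389307 bases with a median of 25840. Atxn1, the gene of spinocerebellar ataxia type 1, gave 4 circles with 125, 151 and 136 reads, 9.77% of the reads of circles with coordinates, at a gene level of 16.3, 15.3 and 14.9 FPKM. Glcci1 gave 5 circles with 101, 121 and 134 reads (8.44%). Dgki, a lipid kinase, gave 4 circles with 12, 24 and 9 reads.

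Reads of the highest circles and the levels of their hosts were set side by side. The highest circle with coordinates, chr6:8537816-8582790 in Glcci1, had 48, 60 and 61 reads, or 3429, 3363 and 3233 CPM, and ranked 27 of all circles. The level of Glcci1 itself was 2.44, 9.14 and 2.40 FPKM, so the host was highest in replicate 2 while the CPM of its circle had a CV of 2.98%. The highest circle of Atxn1, chr13:45795508-45956575, had 51, 57 and 42 reads. chrX:94098282-94102380 in Zfx, an X-linked zinc finger gene, had 31, 32 and 16 reads at a host level of 4.99, 1.59 and 2.02 FPKM. Over 252 circles with a listed host, the Spearman correlation of circle CPM with host FPKM was 0.145, a description over circles that share hosts and libraries. The circle of Ano3, a member of the anoctamin family, had 4, 31 and 30 reads at chr2:110738770-110795071, while the host stood at 16.5, 17.1 and 19.4 FPKM.

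**Figure D5:**
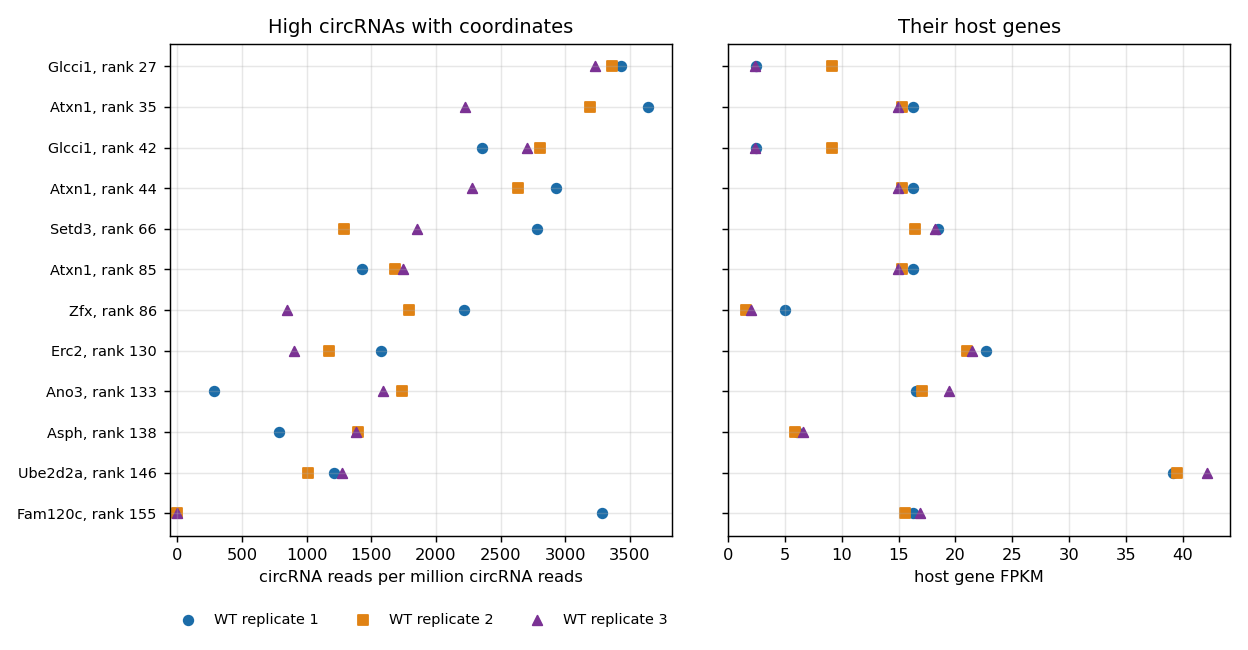
The 12 circRNAs with coordinates drawn, out of the 15 highest, named by host gene and by rank among all 2246, with CPM of circRNA reads on the left and FPKM of the host gene on the right, 1 symbol per WT library. The Glcci1 circles lie at 2357 to 3429 CPM with a host under 10 FPKM, the Ano3 circle is lowest in replicate 1, and the Fam120c circle has reads in replicate 1 alone.

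Counts of circles differed between libraries by more than counting error. The chi-square of the counts divided by its degrees of freedom was 2.22 for replicates 1 and 2, 2.21 for 1 and 3 and 2.09 for 2 and 3, where counting error alone gives 1. No pair therefore agreed within sampling noise, which does not show that the libraries came from separate animals. The common dispersion estimated by edgeR over 1926 circles was 0.131, a spread of 36.1% beyond counting error. Over the 394 circles with a mean of at least 10 reads it was 0.0691, a spread of 26.3%. Without replicate 3 the dispersion over the 1926 circles was 0.140. The median CV of CPM was 68.1% for circles of 2 to 5 mean reads and 14.3% for the 35 circles of at least 50. The true CV of counting error alone, from the square root of the mean reads, is 54.8% and 12.2%. A CV measured on 3 libraries tends to lie below the true one, so the gap may be understated.

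A few circles were seen in 1 library alone. There were 9 with at least 10 reads in a library and 0 in the others, which for the others allows up to the limits given above. The circle at chrX:151436144-151457836 in Fam120c had 46 reads in replicate 1, or 3286 CPM, and 0 in replicates 2 and 3, although the host stood at 16.2, 15.6 and 16.9 FPKM. The other 8 had 10 or 12 reads in their library, and all 3 libraries held at least 1 of the 9.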

How the data were processed

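Total RNA of hippocampus was extracted with Trizol and made into libraries with an Illumina TruSeq kit, per the labels' protocols. Gene levels were deposited by the authors and read as FPKM, a unit taken from their decimals, their totals and the mention of StringTie in the submitters' processing notes. Those notes also name FastQC, HISAT2 and mm9, without versions or roles. circRNA values were deposited by the authors as whole-number read counts, and the tool that called them was not given in the sources. circRNA positions are those of the files: 98.8% of the 257 circles lay inside a gene of the GRCm38 RefSeq table, against 47.1% and 52.1% after a shift of 100000 bases either way, so hosts were named from that table, without regard to strand.

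Of 15639 rows, 22 with date-like names were left out and the row with the highest mean was kept for 20 names on more than 1 row. Of the 15595 genes, 15187 matched the reference name tables. The spread was described with Python 3.11.15, and a pseudocount of 1 was used where libraries were compared on FPKM + 1. The dispersion came from edgeR 4.0.16 (R 4.3.3) with TMM factors and an intercept alone, over circles that reached 2 reads in 2 or more libraries. The rule for genes where 1 library stands apart was tested on simulated libraries with known changes. Their spread was fixed by gene level and the changes were set in 1 library alone, so the test does not show how reliable the calls in the real libraries are. The dispersion estimate was tested on simulated counts of known dispersion. No comparison between labels was made, no p-value is given, and no sample was left out except where stated.

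Members, lists and rules were chosen with earlier results of these data known. The rule named the label check genes, the 30 highest genes, the 5 highest and the lowest member of each list and any listed at 0, the 10 steadiest and 15 most variable genes of at least 5 FPKM, the 10 highest genes where 1 library stood apart per library and direction, and the highest circles and hosts; not all are printed. Outside it, Cx3cr1, P2ry12, Syt1, Pvalb, Vip, Pdgfra, Fos, Npas4, Dusp1, Hspa1a, Hspa1b, Pcdhgc5 and Map2k7 were chosen after their values were seen. Alternatives were other filters, pseudocounts, folds, scalings of FPKM, DESeq2 1.42.0 size factors and each library left out in turn. Some genes and circRNAs that the rule names are not reported or drawn here.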

Additional observations from a re-analysis of the deposited data

How the results depend on the processing

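Over other settings, 27 of 43 main values and 133 of 168 values of single lists or libraries stayed within a set limit. The limit was 1.5 times for counts, the same side of 1.2-fold for list sums, and an SD for the rest. That SD was taken over libraries for shares and over library pairs for the chi-square. For the median CV and the dispersion it was taken over the values with a library left out, which thus helped to set their own limit. The share of the 100 highest genes was 22.3%, and 15.4% over genes not encoded in mitochondria. The median CV of 8.33% was 9.25% with no filter, 5.97% at 10 FPKM or more, and 5.70% to 7.46% with a library left out, where fewer libraries enter each CV. The 122 genes where 1 library stood apart became 450 at 1.5-fold, 195 with a pseudocount of 0.1 and 59 at 5 FPKM or more; with a library left out this count could not be made. Lists whose sums differed by 1.2-fold or more numbered 12, and 5 to 9 with a library left out. The circRNA dispersion of 0.131 was 0.175 with no filter, 0.0691 for circles of at least 10 mean reads and 0.103 to 0.140 with a library left out. The share of the 100 highest circles was 30.3% over all 2246 circles, 31.1% when ranked in each library and 30.5% without replicate 3. Over the 257 circles with coordinates alone it was 73.1%, but 100 circles are a far larger part of that set, so the shares are not comparable. The chi-square per degree of freedom of 2.17 was 2.07 from 5 reads and 2.37 from 20 reads. The causes of these changes were not tested. No paired analysis was possible because libraries of a single label are described. Gene depth is unknown, and most circles rest on a mean under 10 reads.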
